A study of Mus musculus with 16 samples.

Results

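The genes described here are 10 of the 38924 gene IDs in the deposited count tables, and all 10 are used as marks of brain blood vessels and the cells along them. Cldn5, Slc2a1, Abcb1a, Pecam1, Ly6c1, Itm2a, Flt1 and Tek are genes of the endothelium, Pdgfrb is a gene of pericytes and other mural cells, and Lyve1 is a gene of macrophages beside vessels and of lymphatic endothelium. They were taken by name through the Ensembl IDs that the GENCODE annotation of mm10 pairs with these symbols; the rule uses no measured value, although earlier results of these data were known when the genes were listed. All 10 passed the filter on low counts.

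Brain endothelial cells form the blood-brain barrier: tight junctions seal the gaps between them, transporters carry nutrients in, and efflux pumps return many drugs and toxins to the blood. Pericytes, which endothelial cells recruit with PDGF-B, share their basement membrane and help to keep the barrier closed. Signals of the VEGF, angiopoietin, Wnt and Notch pathways set the growth and quiescence of these vessels, and peripheral inflammation can change the expression of barrier genes.

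Messenger RNA was sequenced from 16 mouse brain libraries whose labels give the region as the ventral posterolateral nuclei of the thalamus, which relay touch and pain input from the body. The 4 groups, of 4 libraries each, were CFA libraries labelled KO (numbered 13 to 16), WT CFA libraries (9 to 12), naive libraries labelled KO (5 to 8) and WT naive libraries (1 to 4). CFA is given as an abbreviation only; in studies of pain it usually means complete Freund's adjuvant, which inflames the tissue it is injected into, and the labels give no dose or time. The series text describes a floxed RGS4 allele cut by Cre from an adeno-associated virus in this nucleus, while the sample labels name only the genotype, and whether the other groups received a virus is not given in the sources used here. Each library pooled 4 punches from both sides of 2 mice, so a library is a pool and not 1 animal, and the age of the mice is not given in the sources used here.

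Total counts ran from 18.1 M to 78.8 M per library, with a median of 42.6 M; naive libraries labelled KO were the shallowest group, at 18.1 to 43.7 M. Rgs4 lay between 77.5 and 90.2 CPM (counts scaled to a common library total, the usual edgeR unit) in the 8 libraries labelled KO and between 77.3 and 96.8 CPM in the 8 WT libraries. The Rgs4 range of the libraries labelled KO thus lay within that of the WT libraries. The libraries labelled KO are called by their label throughout. The protocol names male mice and the sex label says female: Xist lay between 559.7 and 750.1 CPM in all libraries, and the sum of 4 Y-linked genes was 1.29 CPM in WT naive library 2 and no more than 0.173 CPM in any other. Results of the 10 genes that pass the test are therefore given with and without that library. The labels name no batch.

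Vessel genes were detected in every library, with levels that differed widely between genes when set per length of exon. Slc2a1, which encodes the glucose transporter of the barrier, averaged 29.9 ± 2.52 CPM per kilobase of exon, and Itm2a, which encodes a small membrane protein abundant in brain endothelium, averaged 29.2 ± 2.56 CPM per kilobase (SD, n = 16 libraries, as for the other levels per kilobase). Their ranges overlapped, and Slc2a1 was the higher of the pair in 9 of 16 libraries. Cldn5, the main claudin of brain endothelial tight junctions, followed with 11.8 ± 1.58 CPM per kilobase. Ly6c1, a surface protein of mouse brain endothelium that some blood monocytes also carry, had 10.5 ± 1.09 CPM per kilobase, below Cldn5 in 13 of 16 libraries. Abcb1a, the drug efflux pump P-glycoprotein, had 5.4 ± 0.435 CPM per kilobase. Pdgfrb, the receptor through which pericytes sense PDGF-B, had 4.29 ± 0.469 CPM per kilobase, below Abcb1a in 15 of 16 libraries. The receptors Flt1, which binds VEGF-A, and Tek, the Tie2 receptor for angiopoietins, had 3.31 ± 0.293 and 2.74 ± 0.261 CPM per kilobase. Pecam1, an adhesion molecule of endothelial junctions, had 2.54 ± 0.229 CPM per kilobase and lay below Tek in 13 of 16 libraries. The ranges of neighbours in this order overlapped except between Itm2a and Cldn5, between Ly6c1 and Abcb1a, and between Pecam1 and Lyve1, the lowest. The length used was the union of all annotated exons of a gene, the same in every library, and the order depends on it. In CPM alone, Pecam1 averaged 15.8 and Tek 12.9.

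Lyve1, a hyaluronan receptor, was the lowest member, at 0.188 ± 0.0602 CPM per kilobase, and rested on 8 to 50 counts per library. Its coefficient of variation over the 16 libraries was 32.1%, against 8.05% to 13.4% for the other 9 genes. Cldn5 was the most variable of those 9 and Abcb1a the least.

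**Figure D1:**
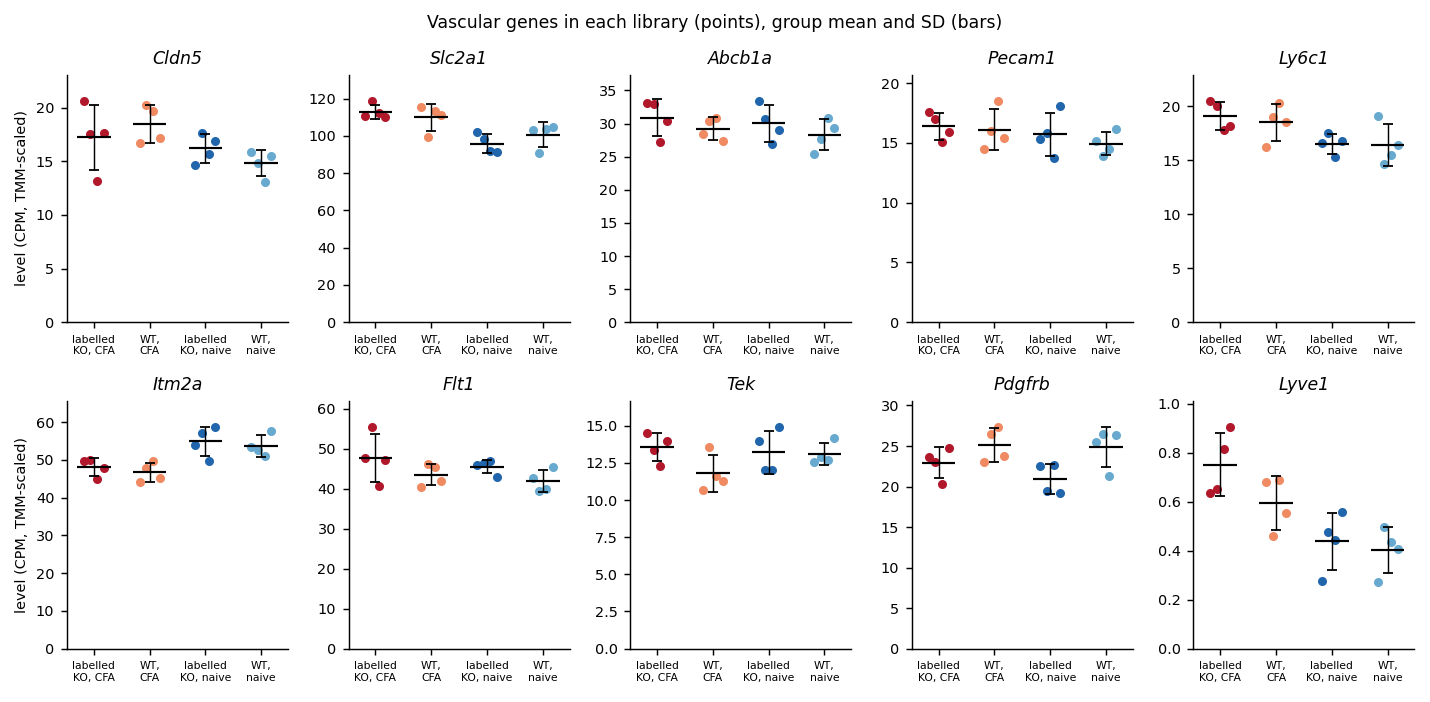
Level of each of the 10 genes (CPM on TMM-scaled totals, y axis from 0) in each library (points), by group (x axis), with the group mean and SD (n = 4). The CFA libraries lie above most naive libraries for Slc2a1 and Lyve1 and below most of them for Itm2a.

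After CFA, averaged over both genotypes, Slc2a1 and Lyve1 were higher and Itm2a was lower, while the other 7 vessel genes did not pass the test. Slc2a1 was 1.13-fold the naive level, Lyve1 1.59-fold and Itm2a 0.874-fold. Of all 18350 genes tested, 1.81% passed in this comparison, and 3 of the 10 vessel genes did. DESeq2 also called 3 of the 10, with Ly6c1 in place of Lyve1, and 3.58% of all genes. The 10 genes were listed with earlier results of these data known, so these shares do not test for an excess. The median log2 fold change of the 10 genes was 0.08, against 0 over all genes tested. In tissue punches like these, fewer cells of a type and less RNA per cell cannot be told apart.

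Slc2a1 had 110.6, 118.7, 112.1 and 110.3 CPM in CFA libraries labelled KO and 115.5, 99.5, 113.3 and 111.3 CPM in WT CFA libraries. In naive libraries labelled KO it had 102.1, 98.3, 91.9 and 91.2 CPM, and in WT naive libraries 103.2, 90.6, 103.7 and 104.8 CPM. All CFA libraries except WT CFA library 10 lay above all naive libraries. The average change was 0.18 on the log2 scale (SE 0.04; 95% interval of the fold 1.07 to 1.2; adjusted p = 0.0132). Without WT naive library 2 it was 0.16 (adjusted p = 0.018). It was called with each of the 16 libraries left out in turn. Within the libraries labelled KO alone the change was 0.23 (SE 0.05; adjusted p = 0.0938) with no overlap between CFA and naive, and DESeq2 gave an adjusted p of 0.0134 for it. Within WT alone it was 0.13 (SE 0.05; adjusted p = 0.202), and the interaction, the difference between these changes, was 0.11 (SE 0.07; adjusted p = 0.655). Slc2a1 (ENSMUSG00000028645.4) lies on the plus strand at chr4:119108711-119137983 in mm10 and shares 105 exon bases with the antisense gene Gm12868. The library kit does not mark strand; Gm12868 itself was counted at 0.0689 to 0.349 CPM.

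Itm2a had 49.6, 50, 44.9 and 47.9 CPM in CFA libraries labelled KO and 44.2, 47.8, 49.7 and 45.1 CPM in WT CFA libraries. Naive libraries labelled KO had 54.0, 57.2, 49.8 and 58.6 CPM, and WT naive libraries 53.4, 52.7, 51.0 and 57.6 CPM. All CFA libraries except library 14, which is labelled KO, lay below all naive libraries. The average log2 change was -0.19 (SE 0.04; 95% interval of the fold 0.83 to 0.921; adjusted p = 0.00576), and it was -0.20 without WT naive library 2 (adjusted p = 0.0113). It was called with each of the 16 libraries left out in turn. Itm2a was also the only vessel gene of the 10 called for CFA within WT, with a log2 change of -0.20 (SE 0.05; adjusted p = 0.0434) and no overlap between the groups, where 2.23% of all genes tested passed. That call was lost on leaving out any of the 8 WT libraries except library 11, with adjusted p up to 0.12; without WT naive library 2 it was 0.0861. In the libraries labelled KO the log2 change was -0.19 (SE 0.05; adjusted p = 0.217), and the interaction was 0.01 (SE 0.07; adjusted p = 0.987). Itm2a (ENSMUSG00000031239.5) lies on the minus strand at chrX:107397099-107403376 in mm10, and no other annotated gene overlaps it.

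The start regions of these 2 genes are shown because they moved in opposite directions in the same libraries. Each is 250 bases before to 50 bases after the start of the gene in RefSeq (GRCm38.p6), written 5′ to 3′ on the gene's own strand: chr4:119108495-119108794 on the plus strand for Slc2a1 and chrX:107403311-107403610 on the minus strand for Itm2a. In the Slc2a1 sequence the capitals mark ACGTG, the core of the hypoxia response element, and TATAAA, the TATA box letters. In the Itm2a sequence they mark GGAA, the core bound by ETS factors, which reads TTCC where it lies on the opposite strand.
Slc2a1: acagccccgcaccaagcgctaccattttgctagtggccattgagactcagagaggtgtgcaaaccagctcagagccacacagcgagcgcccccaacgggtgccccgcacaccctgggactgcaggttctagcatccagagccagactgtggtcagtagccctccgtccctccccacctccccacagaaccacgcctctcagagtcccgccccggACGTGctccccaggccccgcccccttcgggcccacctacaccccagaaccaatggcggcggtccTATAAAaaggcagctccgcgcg
Itm2a: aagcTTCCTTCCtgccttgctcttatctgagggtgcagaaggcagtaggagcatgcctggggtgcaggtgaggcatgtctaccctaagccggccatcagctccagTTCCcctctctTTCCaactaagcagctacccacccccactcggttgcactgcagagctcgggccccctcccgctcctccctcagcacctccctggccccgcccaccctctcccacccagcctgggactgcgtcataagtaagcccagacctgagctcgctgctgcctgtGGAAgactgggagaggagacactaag

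ACGTG began 36 bases before the RefSeq start of Slc2a1 and TATAAA 28 bases after it, and GGAA did not occur in the window on either strand. The annotated gene starts, chr4:119108711 for Slc2a1 and chrX:107403376 for Itm2a, lie upstream of the RefSeq starts, so these offsets hold for RefSeq only. The Itm2a window held GGAA 5 times, of which 4 were on the opposite strand before the start, and neither ACGTG nor TATAAA. Searched on both strands with no overlap between these motifs, ACGTG occurred in 19.6% of the 32851 RefSeq start windows of the same length, TATAAA in 13.6% and GGAA in 96.0%. Of the 10 vessel genes 7 had an entry in that table (Pecam1, Pdgfrb and Lyve1 were not matched), and ACGTG occurred in 1 of the 7, TATAAA in 3 and GGAA in 5. The cAMP response element TGACGTCA occurred in 1, Flt1, and in 1.79% of all windows. These are matches of letters and no binding was measured. The Abcb1a window, chr5:8566841-8567140, lies well upstream of the annotated gene start at chr5:8660077. For Ly6c1, the first of 2 entries was used.

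The CPM ratio of Slc2a1 to Itm2a separated all CFA from all naive libraries. The ratio ran from 2.23 to 2.49 in CFA libraries labelled KO and from 2.08 to 2.61 in WT CFA libraries. It ran from 1.56 to 1.89 in naive libraries labelled KO and from 1.72 to 2.03 in WT naive libraries. This ratio was formed after the values of both genes were seen, so it is a description and has no test. Within groups the deviations of Slc2a1 and Itm2a had a correlation of 0.06 on the log2 scale.

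**Figure D2:**
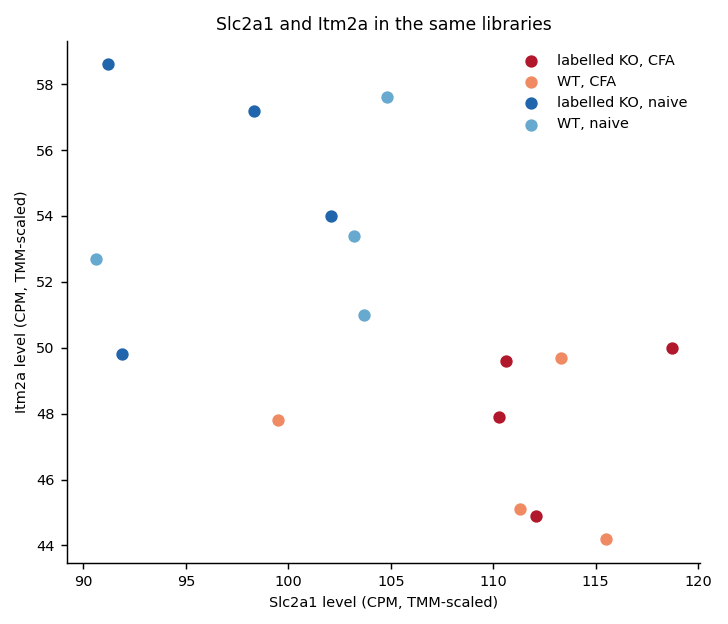
Itm2a level (y axis, CPM) against Slc2a1 level (x axis, CPM) in the 16 libraries, coloured by group; both axes start above 0. The CFA libraries lie to the lower right, with ratios of Slc2a1 to Itm2a from 2.08 to 2.61, and the naive libraries to the upper left, with ratios from 1.56 to 2.03.

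Lyve1 had 0.636, 0.652, 0.815 and 0.904 CPM in CFA libraries labelled KO and 0.682, 0.461, 0.689 and 0.552 CPM in WT CFA libraries. It had 0.276, 0.476, 0.442 and 0.557 CPM in naive libraries labelled KO and 0.273, 0.498, 0.436 and 0.408 CPM in WT naive libraries. All CFA libraries except WT CFA libraries 10 and 12 lay above all naive libraries. The average log2 change was 0.67 (SE 0.17; 95% interval of the fold 1.24 to 2.03; adjusted p = 0.0488). The call was lost on leaving out any library except library 8 (naive, labelled KO) or WT CFA library 10, with adjusted p up to 0.123; without WT naive library 2 it was 0.0566. It was also lost with all libraries thinned to the shallowest (adjusted p = 0.199) and with no filter on low counts (adjusted p = 0.0519). DESeq2 gave Lyve1 no adjusted p. Its log2 change was 0.80 (SE 0.25; adjusted p = 0.333) in libraries labelled KO, with no overlap, and 0.54 (SE 0.23; adjusted p = 0.229) in WT. Lyve1 (ENSMUSG00000030787.3) lies on the minus strand at chr7:110850607-110863239 in mm10.

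Lyve1 belongs both to the list of perivascular macrophage genes and to that of lymphatic endothelium. Of the 11 macrophage genes tested, of 12 listed, Lyve1 was the only one called in the CFA average, where 1.81% of all genes tested passed. The list had a median log2 fold change of 0.21, and 8 of its 12 genes averaged under 1 CPM. Its summed level ran from 18.7 to 24.1 CPM in the 8 CFA libraries and from 17 to 21.3 CPM in the 8 naive ones. The largest part of that sum was Stab1, which averaged 10 CPM in CFA and 9.75 CPM in naive libraries. The scavenger receptor genes Mrc1 and Cd163 had log2 fold changes of 0.13 (adjusted p = 0.562) and 0.34 (adjusted p = 0.198). Of the 5 lymphatic genes tested, of 6 listed, only Lyve1 was called; Ccl21a, a chemokine of lymphatic vessels, was at 0 in some libraries and at most at 0.0273 CPM. The sum of the lymphatic list is not read here, since most of it came from Reln (mean 92.5 CPM) and Prox1 (mean 35.5 CPM), which neurons also express. The part of either cell type in the Lyve1 change was not tested.

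Ly6c1 and Cldn5 did not pass the test for CFA, although both lay above 0 in the average. Ly6c1 had 20.5, 20, 17.8 and 18.2 CPM in CFA libraries labelled KO and 16.2, 19.0, 20.3 and 18.6 CPM in WT CFA libraries, against 16.6, 17.5, 15.3 and 16.8 CPM in naive libraries labelled KO and 19.1, 14.7, 15.5 and 16.4 CPM in WT naive libraries. Within the libraries labelled KO the CFA and naive values did not overlap, and within WT they did. Its average log2 change was 0.20 (SE 0.06; adjusted p = 0.0759), and it was called by DESeq2 (adjusted p = 0.0332), without WT naive library 1 (adjusted p = 0.0191) and without WT CFA library 9 (adjusted p = 0.0356). Ly6c1 (ENSMUSG00000079018.4; minus strand, chr15:75044018-75048830) has a near-identical neighbour, Ly6c2, which was counted at no more than 0.0689 CPM.

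Cldn5 had 20.6, 17.5, 13.2 and 17.6 CPM in CFA libraries labelled KO and 16.7, 20.2, 19.7 and 17.2 CPM in WT CFA libraries. It had 14.6, 17.6, 15.7 and 16.9 CPM in naive libraries labelled KO and 15.9, 14.8, 13.1 and 15.5 CPM in WT naive libraries. In WT, all CFA libraries lay above all naive ones, whereas in the libraries labelled KO library 15 was the lowest of both treatments. The log2 change was 0.32 (SE 0.11; adjusted p = 0.128) in WT and 0.11 (SE 0.11; adjusted p = 0.874) in libraries labelled KO, and the interaction was -0.21 (SE 0.15; adjusted p = 0.677). The WT change was called when only WT libraries entered the fit (adjusted p = 0.0411), and the average change of 0.21 (SE 0.08; adjusted p = 0.188) was called without library 15 (adjusted p = 0.0306). Cldn5 (ENSMUSG00000041378.1) lies on the plus strand at chr16:18776847-18778262 and has no annotated overlap.

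Summed markers of neurons and of astrocytes were also higher in CFA than in naive libraries within WT. The sum of 10 neuron genes ran from 6070 to 6257.5 CPM in WT CFA libraries and from 5326.6 to 5779.5 CPM in WT naive libraries, without overlap, and that of 11 astrocyte genes from 4704.6 to 4886.3 CPM in WT CFA and from 4608.1 to 4691.3 CPM in WT naive libraries, also without overlap. The sum of 10 oligodendrocyte genes ran from 8722.7 to 9903.4 CPM in WT CFA libraries and from 6852.5 to 8868.6 CPM in WT naive libraries, with overlap. In libraries labelled KO all 3 sums overlapped between CFA and naive. Within the astrocyte sum, Slc1a2 alone averaged 1868.8 CPM in WT CFA and 1751.5 CPM in WT naive libraries. Gja1 also averaged higher in WT CFA libraries (366.1 against 355.4 CPM), whereas Aqp4 (223.6 against 228 CPM) and Slc1a3 (392.1 against 416.2 CPM) averaged lower. Of the 11 astrocyte genes, 0 were called for CFA within WT, where 2.23% of all genes tested passed. The median log2 fold change of the neuron list was 0.13 in WT and -0.06 in libraries labelled KO. That of the oligodendrocyte list was 0.23 in WT and -0.19 in libraries labelled KO, and that of the astrocyte list 0.04 and -0.04. None of these genes was at 0 in any library, and the part of these cells in the vessel gene changes was not tested.

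The remaining endothelial genes and Pdgfrb did not pass the test for CFA. The average log2 change was 0.09 for Pecam1 (SE 0.06; adjusted p = 0.535), 0.07 for Flt1 (SE 0.05; adjusted p = 0.612) and 0.04 for Abcb1a (SE 0.05; adjusted p = 0.77). It was 0.08 for Pdgfrb (SE 0.06; adjusted p = 0.576) and -0.06 for Tek (SE 0.06; adjusted p = 0.706). The 95% intervals of the fold for these 5 genes lay between 0.884 and 1.15. In libraries labelled KO, edgeR called 0 of the 10 vessel genes for CFA, with 4 at an unadjusted p under 0.05 and 1, Slc2a1, called by DESeq2. Of all genes, edgeR called 0.185% there and DESeq2 0.407%. For the interaction it called 0 of 10, with 0 at an unadjusted p under 0.05 and 0 called by DESeq2, where 0.0654% of all genes passed in edgeR and 0.425% in DESeq2.

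**Figure D3:**
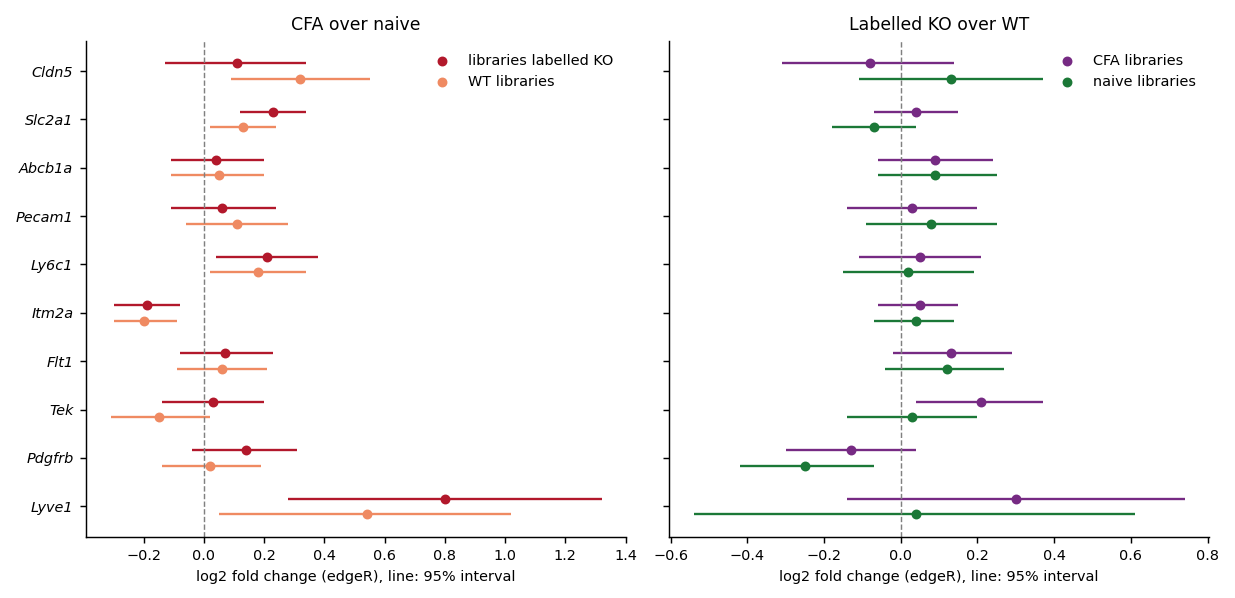
Log2 fold changes (x axis; points) with 95% intervals (lines) of the 10 genes from the edgeR model, for CFA over naive (left) and for labelled KO over WT (right), each within the other factor. Lyve1 has the widest intervals; Itm2a lies below 0 for CFA in both genotypes, and Pdgfrb lies below 0 for genotype in both treatments.

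Between the genotype labels none of the 10 vessel genes passed the test. For labelled KO over WT, edgeR called 0 of 10 in CFA libraries (1 at an unadjusted p under 0.05; 0 by DESeq2), where 1.6% of all genes passed in edgeR and 2.18% in DESeq2. It called 0 of 10 in naive libraries (1 at an unadjusted p under 0.05; 0 by DESeq2), where 1.45% passed in edgeR and 2.32% in DESeq2. For the average of both, it called 0 of 10 (2 at an unadjusted p under 0.05; 1 by DESeq2), where 3.73% of all genes passed in edgeR and 3.91% in DESeq2. The median log2 fold change of the 10 genes in that average was 0.05, against 0 over all genes tested. The comparisons of genotype and of CFA share libraries, so their values are set side by side and not compared.

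Pdgfrb came nearest to the threshold. It had 23.6, 23.0, 20.3 and 24.8 CPM in CFA libraries labelled KO, against 23.0, 26.5, 27.3 and 23.8 CPM in WT CFA libraries. It had 22.5, 19.5, 22.6 and 19.2 CPM in naive libraries labelled KO, against 25.5, 26.5, 21.3 and 26.3 CPM in WT naive libraries. The groups overlapped, but none of the 8 libraries labelled KO lay above the WT median. The average log2 difference was -0.19 (SE 0.06; fold 0.878, 95% interval 0.807 to 0.954; adjusted p = 0.0875), with -0.13 in CFA libraries (adjusted p = 0.548) and -0.25 in naive ones (adjusted p = 0.173). DESeq2 called the average (adjusted p = 0.0399), as did edgeR without WT naive library 3 (adjusted p = 0.017). Pdgfrb (ENSMUSG00000024620.5) lies on the plus strand at chr18:61045150-61085061 in mm10.

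The other pericyte genes did not pass for genotype: edgeR called 0 of 16 listed genes, Pdgfrb among them, in the average. Of all genes tested, 3.73% passed there, and at that share a list this short can hold 0 calls. The summed level of that list ran from 275.3 to 323 CPM in CFA libraries labelled KO and from 284.9 to 328.8 CPM in WT CFA libraries. It ran from 298.4 to 312.4 CPM in naive libraries labelled KO and from 277.1 to 326.3 CPM in WT naive libraries. Rgs5, a G-protein regulator abundant in brain pericytes, had an average log2 difference of 0.17 (SE 0.06; adjusted p = 0.124), and Vtn, the vitronectin gene, had -0.15 (SE 0.06; adjusted p = 0.299). The median over the 16 genes was 0.01. Pdgfb, the ligand of the receptor, had 0.15 (SE 0.05; adjusted p = 0.177).

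The receptors Flt1 and Tek had the largest average differences between genotype labels among the 8 endothelial genes described here. Other genes in the list of 30 endothelial identity genes had larger log2 differences, among them Sox17 (0.26; adjusted p = 0.177), Icam2 (0.23; adjusted p = 0.248) and Emcn (0.16; adjusted p = 0.411). None of the 30 passed in this average, where 3.73% of all genes tested did. Flt1 had 47.6, 55.3, 40.6 and 47.1 CPM in CFA libraries labelled KO, against 40.5, 46.2, 45.3 and 42.0 CPM in WT CFA libraries. It had 45.8, 46.3, 46.9 and 43.0 CPM in naive libraries labelled KO, against 42.6, 39.5, 40.0 and 45.5 CPM in WT naive libraries. Of the 8 libraries labelled KO, 7 lay above the WT median, with overlap in both treatments. The average log2 difference was 0.13 (SE 0.05; adjusted p = 0.241), and it was called only without library 15 (adjusted p = 0.0468) among the settings run.

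Tek had 14.5, 13.4, 12.3 and 14 CPM in CFA libraries labelled KO, against 10.7, 13.6, 11.6 and 11.3 CPM in WT CFA libraries, a log2 difference of 0.21 (SE 0.08; adjusted p = 0.27). In naive libraries labelled KO it had 14, 12, 12 and 14.9 CPM, against 12.6, 12.9, 12.7 and 14.2 CPM in WT naive libraries, a log2 difference of 0.03 (SE 0.08; adjusted p = 0.925). The groups overlapped in both treatments, and the interaction of 0.18 (SE 0.11; adjusted p = 0.634) did not pass. The genes of Flt1 (ENSMUSG00000029648.7; minus strand, chr5:147561604-147726011) and Tek (ENSMUSG00000006386.9; plus strand, chr4:94739289-94874976) overlap no other annotated gene.

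Abcb1a and Pecam1 varied within groups by more than their group means differed. Abcb1a ran from 27.2 to 33.1 CPM in CFA libraries labelled KO, from 27.3 to 30.9 CPM in WT CFA libraries, from 26.9 to 33.4 CPM in naive libraries labelled KO and from 25.4 to 30.8 CPM in WT naive libraries. Pecam1 ran from 15.1 to 17.6 CPM in CFA libraries labelled KO, from 14.5 to 18.5 CPM in WT CFA libraries, from 13.7 to 18.1 CPM in naive libraries labelled KO and from 13.9 to 16.2 CPM in WT naive libraries. Their average log2 differences between genotype labels were 0.09 (SE 0.05; adjusted p = 0.485) for Abcb1a and 0.06 (SE 0.06; adjusted p = 0.756) for Pecam1. Abcb1a (ENSMUSG00000040584.8, plus strand, chr5:8660077-8748575) shares 553 exon bases with Gm42686 on the opposite strand, which has no entry in the deposited counts. Its paralogue, Abcb1b, was counted at 3.32 to 4.54 CPM. How reads alike in Abcb1a and Abcb1b were assigned is not given in the sources used here. Pecam1 (ENSMUSG00000020717.13) lies on the minus strand at chr11:106654217-106750628.

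The levels of the vessel genes varied together across libraries only in part. Over the 16 libraries the 45 pairs of the 10 genes had Pearson r on log2 CPM from -0.59 to 0.71, with a median of 0.25. Of these, 11 had a permutation p under 0.05 before adjustment and 0 after it (lowest adjusted p = 0.071). Pecam1 and Ly6c1 had the highest, r = 0.71 (permutation p = 0.0023) and rho = 0.71 (permutation p = 0.003), and r was 0.83 without the 2 libraries farthest from the median of Pecam1. Slc2a1 and Itm2a had the lowest, r = -0.59 (permutation p = 0.016, adjusted p = 0.12) and rho = -0.59 (permutation p = 0.017, adjusted p = 0.14), which do not pass the threshold after adjustment. For this pair r was -0.49 without the 2 libraries farthest from the median of Slc2a1, and 0.06 within groups. Within groups Pecam1 and Itm2a had r = 0.91, against 0.24 over all libraries, and Itm2a had 0.71 with Cldn5, 0.62 with Ly6c1 and 0.61 with Tek. The median over the 28 pairs of the 8 endothelial genes was 0.48 within groups and 0.33 over all libraries. With the mean of the other 7 endothelial genes, Pecam1 had r = 0.8 and Flt1 0.68 over all libraries, while Slc2a1 had 0.17 and Itm2a 0.04.

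Among the 15021 other genes averaging 1 CPM or more, those most like the mean of the 8 endothelial genes over the 16 libraries were Kif13b (r = 0.89), Adgrf5 (0.88), Sowahb (0.88), Sort1 (0.86), Epop (0.86), Rgs5 (0.85), Clic5 (0.85), Mindy1 (0.85), Igfbp7 (0.84) and Map1a (0.84). Adgrf5 is on the list of endothelial genes and Rgs5 on that of pericyte genes. The other 8 are on none of the lists used here, but the lists do not hold every vessel gene. Of these 8, Map1a, at a mean of 1841.3 CPM, is a neuronal cytoskeleton gene. These likenesses, the highest of 15021 over 16 libraries, share the depth and composition of each library and are descriptions.

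In the wider set of vessel genes, 15 lists with 191 genes of which 184 were tested, 9 genes were called in the CFA average, 6 higher and 3 lower, that is 4.89% against 1.81% of all genes. Slc2a1, Itm2a and Lyve1 are 3 of these 9. The lists were chosen with earlier results of these data known, so these shares and those given below are descriptions and do not test for an excess. The punches hold all cells of the tissue, so the counts of a listed gene need not come from vessels. Agrn, another of the 9, averaged 287.5 CPM, against 104.8 CPM for Slc2a1, the highest of the 10 vessel genes in CPM. The part of other cells in these calls was not tested. Of the 15 barrier transporter genes 3 were higher and 0 lower, with a median log2 fold change of 0.03, against 0 over all genes. Mfsd2a, a lipid carrier that restrains vesicle traffic across brain endothelium, ran from 36.9 to 42.2 CPM in CFA libraries labelled KO and from 38.3 to 46.9 CPM in WT CFA libraries, against 25.9 to 29.3 CPM in naive libraries labelled KO and 23.6 to 31.8 CPM in WT naive libraries. All 8 CFA libraries lay above all 8 naive ones, and the fold was 1.45 (95% interval 1.33 to 1.58; adjusted p = 8.33e-05), with 1.42 in libraries labelled KO (adjusted p = 0.0155) and 1.49 in WT (adjusted p = 0.00174). The call within the libraries labelled KO was lost without library 5, 6, 8, 15 or 16, with adjusted p up to 0.0658. Abcc4, an efflux pump of organic anions, averaged 13.6 ± 0.844 CPM in CFA and 11.2 ± 0.972 CPM in naive libraries (SD, n = 8 each), a fold of 1.22 (95% interval 1.13 to 1.3; adjusted p = 0.00315).

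Of the 30 endothelial identity genes, Itm2a was lower and Vwf, the clotting factor carrier von Willebrand factor, was higher (fold 1.35; adjusted p = 0.0408). The summed level of that list ran from 409.1 to 499.6 CPM in CFA and from 411.4 to 486.3 CPM in naive libraries, so the sums overlapped. Of 8 endothelial activation genes tested, of 13 listed, only Lrg1, a secreted glycoprotein induced by inflammation, was higher (fold 2.21; adjusted p = 0.0442; 2 to 53 counts per library). The other 5, Sele, Selp, Lcn2, Ccl2 and Cxcl10, were under the filter on low counts and at 0 in some libraries. Of these, Lcn2, an acute phase protein, had 0.0932 to 0.981 CPM in the 8 CFA libraries and 0 to 0.0689 CPM in the 8 naive ones, without overlap and with at most 44 counts. Selp, the P-selectin gene, had 0.0508 to 0.149 CPM in CFA and 0 to 0.138 CPM in naive libraries. The basement membrane gene Agrn was lower (fold 0.924; adjusted p = 0.0132), 1 of 14 listed, as was Wnt7a, a ligand that induces barrier properties in brain endothelium (fold 0.851; adjusted p = 0.0488), 1 of 15 listed. The calls of Vwf, Lrg1 and Wnt7a were each lost on leaving out 13 of the 16 libraries in turn, with adjusted p up to 0.0878, 0.0948 and 0.102. They were kept only without library 4, 12 or 15 for Vwf, library 8, 9 or 14 for Lrg1 and library 3, 6 or 12 for Wnt7a, whereas those of Mfsd2a, Abcc4 and Agrn were kept in all 16. With libraries thinned to the shallowest, the calls of Vwf (adjusted p = 0.0869), Lrg1 (adjusted p = 0.105) and Wnt7a (adjusted p = 0.19) were lost, as was that of Vwf with no filter on low counts (adjusted p = 0.0906).

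**Figure D4:**
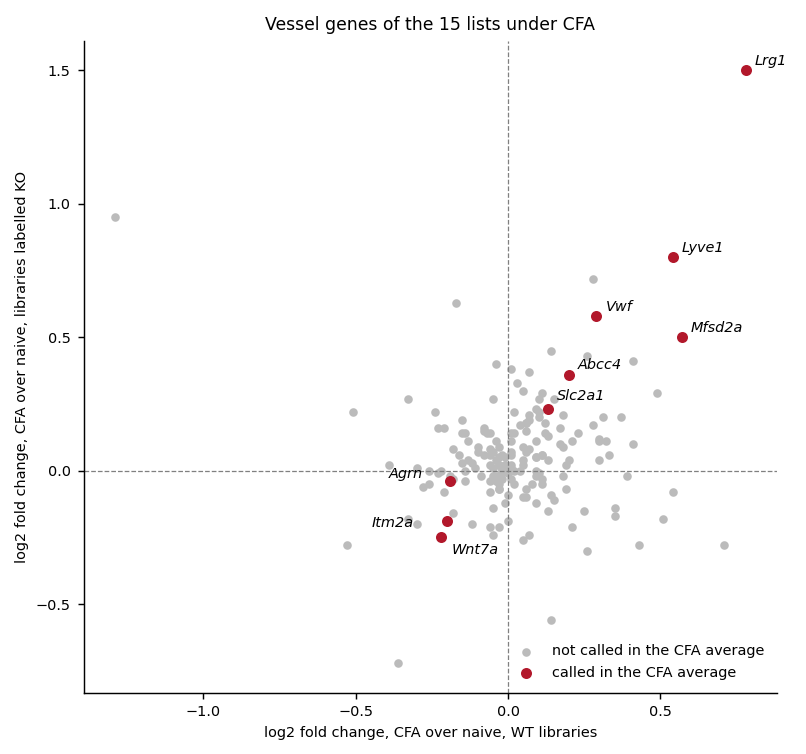
Log2 fold change of CFA over naive in libraries labelled KO (y axis) against that in WT libraries (x axis) for the 184 tested genes of the 15 vessel lists; red points are the 9 genes called in the CFA average. Mfsd2a, Abcc4, Slc2a1, Vwf, Lyve1 and Lrg1 lie above 0 on both axes, and Itm2a, Agrn and Wnt7a below 0 on both; most other genes lie near 0.

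Within WT, CFA moved 5 vessel genes of the 184 past the threshold (2.72% against 2.23% of all genes). Besides Itm2a and Mfsd2a these were Agrn (fold 0.879; adjusted p = 0.00609), the mural cell receptor Notch3 (fold 0.855; adjusted p = 0.0398) and F13a1, a transglutaminase of macrophages (fold 1.45; adjusted p = 0.0439). Within libraries labelled KO, 3 of 184 passed (1.63% against 0.185%): Mfsd2a, Abcc4 (fold 1.28; adjusted p = 0.0359) and Tfrc, the transferrin receptor (fold 0.846; adjusted p = 0.0318). Between the genotype labels, 1 of 184 passed in naive libraries (0.543% against 1.45% of all genes), 0 in CFA libraries (against 1.6%) and 0 in the average (against 3.73%). The 1 gene was Tfrc, with 178.5 ± 6.61 CPM in naive libraries labelled KO and 152.4 ± 12.4 CPM in WT naive libraries (SD, n = 4 each; fold 1.17; adjusted p = 0.0143). Its interaction did not pass in edgeR (adjusted p = 0.0999), but did in DESeq2 (adjusted p = 0.00818) and in edgeR with no filter on low counts (adjusted p = 0.0368) or without WT naive library 2 (adjusted p = 0.00936). Without that library the genotype average of Tfrc passed as well (log2 0.10; adjusted p = 0.0447). The WT calls were lost without any of the 8 libraries except 2 or 11 for Notch3, and except 4 for F13a1. The calls under CFA in libraries labelled KO were lost except without library 8 or 15 for Abcc4, and except without library 8 or 14 for Tfrc. The call of Tfrc between genotype labels was lost without WT naive library 3 (adjusted p = 0.0556) or library 6 (adjusted p = 0.0698), with only the naive libraries fitted (adjusted p = 0.0628) and with libraries thinned to the shallowest (adjusted p = 0.0857). Fitting only the groups compared also ended the call of Abcc4 in libraries labelled KO (adjusted p = 0.125) and that of F13a1 in WT (adjusted p = 0.0504). Thinning ended these (adjusted p = 0.229 for Abcc4 and 0.203 for F13a1) and the call of Tfrc for CFA in libraries labelled KO (adjusted p = 0.145).

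No gene on the lists of the pathways through which Flt1, Tek and Pdgfrb act was called in the edgeR model of all 16 libraries in any comparison. Over all genes tested, the share called ran from 0.0654% in the interaction to 3.73% in the genotype average, so lists this short can hold 0 calls without any bearing on the pathways. The count of 0 holds for the 10 VEGF ligand and receptor genes, the 7 angiopoietin and Tie genes, the 5 PDGF genes, the 18 genes of the Notch, arterial and venous list (Notch3, called within WT, is on the pericyte list instead), the 13 junction genes, the 14 smooth muscle genes and the 15 perivascular fibroblast genes. In the genotype average, DESeq2 called Pdgfrb, and edgeR called it without WT naive library 3 (adjusted p = 0.017) and Flt1 without library 15 (adjusted p = 0.0468). For CFA within WT, edgeR called the junction gene Cldn5 with only the WT libraries fitted (adjusted p = 0.0411). Vegfa, the main ligand of Flt1, had an average log2 fold change of 0.03 for CFA (SE 0.05; adjusted p = 0.842), and Angpt1, the activating ligand of Tek, of 0.16 (SE 0.06; adjusted p = 0.179). Summed VEGF genes ran from 292.8 to 328.3 CPM in CFA and from 289.7 to 324.2 CPM in naive libraries, and summed junction genes from 400.9 to 440.5 CPM and from 406.4 to 443.2 CPM. Summed haemoglobin and Alas2, which trace blood left in the punches, ran from 15.1 to 33.6 CPM in CFA and from 14.7 to 41.6 CPM in naive libraries, with overlap.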

How the data were processed

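Gene expression was measured by mRNA sequencing of 16 mouse thalamus libraries, prepared with the TruSeq RNA kit, version 2, per the labels' protocols. The authors deposited raw counts of reads for each Ensembl gene; the whole numbers and unequal totals in the tables show no normalization. TopHat, DESeq2 and mm10 are named in the submitters' processing notes, with no versions; for the annotation release and strand setting the sources used here give nothing. The 5 summary lines of each table, 38% to 39.9% of listed reads, entered neither library sizes nor tests. Symbols came from GENCODE annotation of mm10, which matched 37607 of 38924 IDs. The kit does not mark strand, so reads of overlapping, antisense and near-identical genes cannot be assigned with certainty.

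Tests used edgeR 4.0.16 (R 4.3.3). After filterByExpr with a count minimum of 10, 18350 genes with 99.961% of the counts remained. TMM scaled the libraries (factors 0.987 to 1.01), and glmQLFit with the robust option estimated the mean of each group from all 16 libraries together (common biological coefficient of variation 6.1%). Contrasts were CFA and genotype within each level of the other, their interaction and their averages. P-values were two-sided and Benjamini-Hochberg adjusted across the 18350 genes. Called means an adjusted p under 0.05, and adjusted p-values come from edgeR where no other tool is named. Levels are CPM on TMM-scaled totals, and intervals are at 95%. The script was tested on simulated data with known fold changes. Correlations used log2 CPM with permutation p-values. Promoter windows came from the RefSeq table of GRCm38.p6.

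Named genes are the 10 vessel genes, up to 4 called genes with the lowest p of each list in each contrast, defining markers as levels, the 10 genes most like the endothelial mean, and Rgs4. The genes and lists were chosen with earlier results of these data known. Alternatives were DESeq2 1.42.0, its size factors in edgeR, no filter, only the groups compared, thinning to the shallowest library, leaving out each library, and CPM on raw totals. Library numbers 1 to 16 are shared by no groups.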

Additional observations from a re-analysis of the deposited data

Results flagged for a closer look

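A library was singled out where its distance to the nearest of the other 3 libraries of its group, divided by the range of the group, exceeded the 95% critical value of Dixon's test for 4 values; 92 gene and group pairs were checked, and chance flags about 1 in 20. In this way 4 values stood apart. Slc2a1 was at 90.6 CPM in WT naive library 2, against 103.2 to 104.8 CPM in the other 3 WT naive libraries; this is also the library with the highest sum of Y-linked genes. Mfsd2a was at 25.9 CPM in library 8, naive and labelled KO, against 28.8 to 29.3 CPM in the other 3, and Agrn was at 274.1 CPM in the same library, against 296.6 to 299.5 CPM. Wnt7a was at 11.5 CPM in library 14, CFA and labelled KO, against 13.1 to 13.3 CPM in the other 3 of its group. Their causes were not tested.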

How the results depend on the processing

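No paired analysis was possible because no library number is shared between groups. The count of vessel genes called for CFA within WT, 1, became 2 (Itm2a and Cldn5) with only the WT libraries fitted, and lay between 0 and 1 with each library left out. For CFA in libraries labelled KO the count of 0 became 1 (Slc2a1) under DESeq2 and 1 with libraries thinned to the shallowest (adjusted p = 0.0372), and was 0 with each library left out. For the genotype average the count of 0 became 1 (Pdgfrb) under DESeq2 and lay between 0 and 1 with each library left out. The count of 3 in the CFA average lay between 2 and 3 in every alternative run, and Itm2a and Slc2a1 were called in all of them; the counts of 0 for genotype in CFA, genotype in naive libraries and the interaction did not move. The causes of these differences were not tested. No called value of the 10 genes changed its direction: of 1118 recomputed fold changes 1085 kept their side of the threshold, 10 moved past it and 23 fell short of it. All 40 group levels moved by less than 1 SD on raw totals. Lyve1, with 8 to 50 counts per library, has the least depth of the 10 genes.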

Other observations

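Among markers of the other cells in the punches, astrocyte genes were called in the CFA average and neuron genes for CFA within WT. Over all genes tested, 1.81% passed in the CFA average and 2.23% for CFA within WT. Of 11 astrocyte genes in the CFA average, the growth factor receptor gene Fgfr3 was higher (fold 1.09; adjusted p = 0.0152) and the sphingosine receptor gene S1pr1, which endothelial cells also express, was lower (fold 0.927; adjusted p = 0.0441). Of 10 neuron genes in WT, the neurofilament genes Nefl (fold 1.32; adjusted p = 0.0118) and Nefm (fold 1.44; adjusted p = 0.0326) were higher after CFA. The sums of the neuron and astrocyte genes, given above, did not overlap between WT CFA and WT naive libraries. Within the astrocyte sum, Slc1a2 and Gja1 averaged higher in WT CFA than in WT naive libraries, and Aqp4 and Slc1a3 averaged lower. The S1pr1 call was lost on leaving out 13 of 16 libraries and that of Nefm on leaving out 5 of 8. No microglia, oligodendrocyte, ependyma, choroid plexus or blood gene of the lists was called by edgeR in any comparison. Over all genes tested, the share called ran from 0.0654% in the interaction to 3.73% in the genotype average. Summed microglia genes ran from 243.6 to 257.5 CPM in CFA and from 242.6 to 277.5 CPM in naive libraries, and summed choroid plexus genes from 67.8 to 87.7 CPM and from 63.7 to 87.9 CPM, with Ttr, the leading choroid plexus gene, at no more than 1.85 CPM in any library.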
